A study of Mus musculus with 8 samples.

Results

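The Schlafen family is represented here by 7 genes, Slfn1, Slfn2, Slfn3, Slfn4, Slfn5, Slfn8 and Slfn9, out of 25124 genes in the expression table. The genes were taken by symbol, and the family was chosen by a measured value: Slfn4 was already known to have the highest increase by PRDX1 without RANKL in these libraries. Values of the members in that contrast are therefore given as a description, with no p-value. Their calls in it are not read as a test. RNA was sequenced in 8 libraries of mouse bone marrow osteoclast precursors, the macrophage-like cells that can fuse into bone-resorbing osteoclasts. All cells received M-CSF, the growth factor that keeps these precursors alive, at 30 ng/mL for 48 h. The 4 groups of 2 received M-CSF alone, 200 nM recombinant peroxiredoxin 1 (PRDX1), 100 ng/mL RANKL, the cytokine that drives osteoclast formation, or PRDX1 + RANKL. The comparisons ask how PRDX1, a peroxidase that cells can also release, and RANKL change the expression of these precursors.

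The cells are labelled as C57BL/6, whereas the culture methods name ICR mice. The PRDX1 was a His-tagged protein made in Escherichia coli and passed over an endotoxin removal resin, and no group with an inactivated protein or with the bacterial preparation alone was among the 8 libraries. The labels do not say that the libraries of a group came from separate mice or cultures, so p-values measure only the spread between these libraries. With 2 libraries against 2, an exact two-sided permutation test cannot go below p = 0.333, and the tests below are those of limma, which pools the spread over the 4 groups. Read numbers on genes ranged from 24542578 to 41712973 per library, and the 2 libraries of a group differed by more than sampling noise in each group (chi-square per degree of freedom 4.71 to 9.58).

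Schlafen proteins are a mammalian family named for their effect on the growth of thymocytes, and many of their genes are induced by type I interferon. The mouse proteins fall into a short class (Slfn1 and Slfn2), an intermediate class (Slfn3 and Slfn4) and a long class with a helicase-like C-terminal part (Slfn5, Slfn8 and Slfn9). Slfn2 is known for keeping T cells quiescent, Slfn1 for restraining T cell growth, and Slfn4 as a gene of inflammatory macrophages and other myeloid cells.

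The 7 genes lie in one cluster on chromosome 11 (mm10 coordinates, RefSeq transcripts of the table). In order along the chromosome they are Slfn5 (chr11:82952102-82964850, plus strand), Slfn9 (chr11:82980303-82991830, minus strand), Slfn8 (chr11:83002158-83020722, minus strand), Slfn2 (chr11:83065112-83070678, plus strand), Slfn1 (chr11:83116820-83122670, plus strand), Slfn4 (chr11:83175186-83190216, plus strand) and Slfn3 (chr11:83191330-83215154, plus strand). Slfn1 and Slfn4, which had the highest ratios between PRDX1 and control libraries below, are neighbours.

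Promoter sequence is shown because the members divided into those with and without a shared run of bases just before the start. RefSeq promoter windows (GRCm38.p6, the assembly of mm10) were matched for 7 of 7 members. In the 100 bases before the start of the short and intermediate members, the capitals mark a run of 9 bases that all 4 share.
Slfn1 (chr11:83116720-83116819, plus strand): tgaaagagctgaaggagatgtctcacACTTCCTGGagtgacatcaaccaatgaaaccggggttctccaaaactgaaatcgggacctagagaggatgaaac
Slfn2 (chr11:83065012-83065111, plus strand): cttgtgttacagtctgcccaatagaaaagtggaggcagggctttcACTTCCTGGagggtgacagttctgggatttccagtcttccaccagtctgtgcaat
Slfn3 (chr11:83191230-83191329, plus strand): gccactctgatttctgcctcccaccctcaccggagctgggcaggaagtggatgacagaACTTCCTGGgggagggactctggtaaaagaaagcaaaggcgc
Slfn4 (chr11:83175086-83175185, plus strand): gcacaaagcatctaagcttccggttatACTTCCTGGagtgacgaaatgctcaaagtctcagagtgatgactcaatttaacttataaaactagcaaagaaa

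Counted from the start, the run ACTTCCTGG began at -74 in Slfn1, -73 in Slfn4, -55 in Slfn2 and -42 in Slfn3. Its letters were in none of the 250 bases upstream of Slfn5, Slfn8 or Slfn9, and 0.700% of the 32851 upstream windows of the RefSeq table held it, on either strand. Longer runs were shared by pairs of members, the longest of them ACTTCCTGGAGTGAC, of 15 bases, in Slfn1 and Slfn4, and TCTGGCAGCATGCCTGCAGC, of 20 bases, in Slfn8 and Slfn9. The run was found by comparing the members, so its presence in all 4 is a description.

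The long members instead held an exact match to the core letters of the interferon-stimulated response element (GAAA, any 2 bases and GAAA again). The interferon-activated factors of the STAT and IRF families bind this element. Here 100 bases around it are given, with the element in capitals. In Slfn8 and Slfn9 it lies on the opposite strand and reads as its reverse complement.
Slfn5 (chr11:82951902-82952001, plus strand): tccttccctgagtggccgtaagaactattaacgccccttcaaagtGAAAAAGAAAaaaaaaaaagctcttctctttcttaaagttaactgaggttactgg
Slfn8 (chr11:83020804-83020903, minus strand): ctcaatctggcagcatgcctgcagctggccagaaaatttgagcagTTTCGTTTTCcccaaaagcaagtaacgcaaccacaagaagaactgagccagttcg
Slfn9 (chr11:82991831-82991930, minus strand): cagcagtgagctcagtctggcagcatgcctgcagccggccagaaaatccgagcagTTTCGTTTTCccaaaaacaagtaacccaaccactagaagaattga

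The element began at -155 in Slfn5, -136 in Slfn8 and -45 in Slfn9. In the windows from 250 bases before to 50 bases after the start, 3.44% of all 32851 held it on either strand, and those of Slfn1, Slfn2, Slfn3 and Slfn4 did not. The gamma-activated site TTCNNNGAA was in none of the 7 windows and in 8.30% of all. The kappaB motif was in the windows of Slfn1 and Slfn9 and in 4.51% of all. A match is a stretch of letters and not a shown binding site, and the absence of one covers these windows only. Only exact letters were counted. Near matches to the interferon element, such as AAAACTGAAA in Slfn1 and, on the opposite strand, TTTCACTTTT in Slfn4, were left out.

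Slfn4, the intermediate member known from inflammatory myeloid cells, moved from a low to a high level with PRDX1. Its level was 2.19 and 3.25 FPKM (reads scaled by transcript length and library total) in the 2 libraries with M-CSF alone and 96.3 and 78.0 FPKM with PRDX1. With RANKL it was 3.28 and 4.08 FPKM, and with PRDX1 + RANKL 99.4 and 96.9 FPKM. The ranges of all 4 groups were apart, though narrowly for the addition of RANKL. M-CSF alone reached 3.25 against 3.28 FPKM with RANKL, and PRDX1 reached 96.3 against 96.9 FPKM with PRDX1 + RANKL. Every library with PRDX1 lay far above every library without it. The ratio of mean FPKM was 32.1 without RANKL, between 24.0 and 44.0 over the possible pairs of libraries, and 26.7 with RANKL, between 23.8 and 30.3. These values rest on 251 to 17760 reads per library. With RANKL, Slfn4 rose by PRDX1 by 4.41 on the log2(FPKM + 1) scale (SE 0.14, adjusted p = 1.33e-08, limma), the highest fold change of the 11700 genes tested. Without RANKL the value was 4.57, also the highest of the 11700. In RNA of whole cultures, a change in the share of cells of a type and a change in RNA per cell cannot be told apart.

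Slfn1, the short member next to it, had the same order of size. Its level was 1.70 and 2.93 FPKM with M-CSF alone, 51.8 and 47.5 FPKM with PRDX1, 1.55 and 2.34 FPKM with RANKL, and 44.1 and 43.5 FPKM with PRDX1 + RANKL. The groups with and without PRDX1 did not overlap, whereas the ranges of M-CSF alone and RANKL did. Unlike Slfn4, Slfn1 had its highest level with PRDX1 alone, and the ranges of PRDX1 and PRDX1 + RANKL were apart. In the fit neither gene differed between these groups at an adjusted p under 0.05. The log2 difference by RANKL with PRDX1 was -0.18 for Slfn1 (adjusted p = 0.427, limma) and 0.18 for Slfn4 (adjusted p = 0.339). Mean FPKM of Slfn1 was 21.5 times the control level without RANKL and 22.5 times with RANKL. The log2 fold change by PRDX1 with RANKL was 3.94 (SE 0.16, adjusted p = 7.07e-08, limma), rank 2 of the genes tested, and without RANKL it was 3.96, rank 4.

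Slfn2, the other short member, was the most abundant Schlafen mRNA per length in every library. Its level was 157.6 and 156.9 FPKM with M-CSF alone, 226.2 and 223.3 FPKM with PRDX1, 199.9 and 183.0 FPKM with RANKL, and 281.4 and 274.0 FPKM with PRDX1 + RANKL. The 4 groups did not overlap and each addition went with a higher level, in the order M-CSF alone, RANKL, PRDX1 and PRDX1 + RANKL. By PRDX1 with RANKL the log2 difference was 0.54 (SE 0.05, adjusted p = 1.51e-05), under the 1.5-fold that a call required here. It passed that fold under quantile normalization, at 0.69, and without RANKL replicate 1, at 0.60, so that its place below the threshold depended on 1 library and on the scaling. PRDX1 + RANKL against M-CSF alone passed both thresholds, at 0.82 (SE 0.05, adjusted p = 5.37e-07). That comparison shares its M-CSF alone libraries with the contrast that chose the family.

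**Figure D1:**
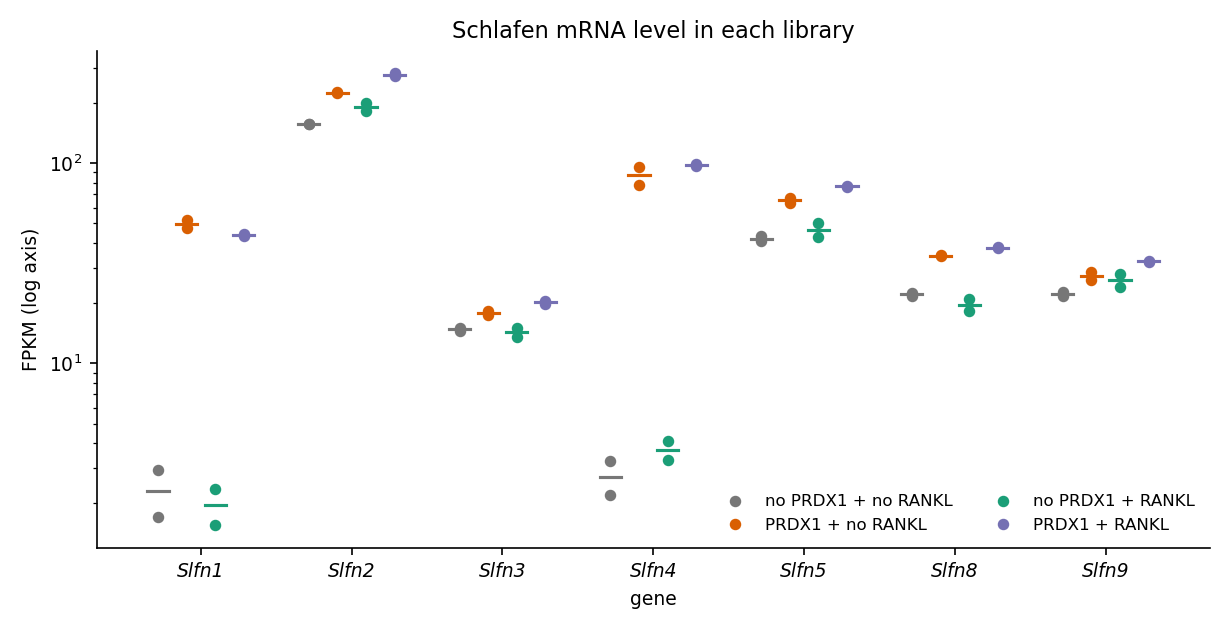
Level of the 7 Schlafen genes in each of the 8 libraries, in FPKM on a log axis. Points are libraries, colours are the 4 groups and short lines are the means of 2 libraries. Slfn1 and Slfn4 sit between 1.55 and 4.08 FPKM without PRDX1 and between 43.5 and 99.4 FPKM with it, while the other 5 genes keep within a much narrower range.

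Slfn3, the other intermediate member, lies directly beside Slfn4 but had a narrow range of levels. It had 15.1 and 14.4 FPKM with M-CSF alone, 17.5 and 18.2 FPKM with PRDX1, 15.1 and 13.5 FPKM with RANKL, and 20.6 and 19.9 FPKM with PRDX1 + RANKL. The libraries with PRDX1 were all above those without, by a small margin. The log2 difference by PRDX1 with RANKL was 0.48 (SE 0.07, adjusted p = 3.15e-04) and below the fold required for a call.

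Slfn5, a long member, rose by PRDX1 in the presence of RANKL. Its level was 40.8 and 43.2 FPKM with M-CSF alone, 63.6 and 67.0 FPKM with PRDX1, 50.3 and 42.6 FPKM with RANKL, and 77.4 and 76.2 FPKM with PRDX1 + RANKL. M-CSF alone and RANKL overlapped, and every other neighbouring pair of groups was apart. The log2 fold change by PRDX1 was 0.72 with RANKL (SE 0.07, adjusted p = 3.32e-05) and 0.63 without.

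Slfn8, also of the long class, rose as well. It had 21.7 and 22.6 FPKM with M-CSF alone, 34.7 and 34.3 FPKM with PRDX1, 20.9 and 18.3 FPKM with RANKL, and 37.9 and 37.8 FPKM with PRDX1 + RANKL. RANKL lay below M-CSF alone, PRDX1 + RANKL lay above PRDX1 alone, and no groups overlapped. The log2 fold change by PRDX1 was 0.92 with RANKL (SE 0.07, adjusted p = 3.18e-06) and 0.62 without.

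Libraries with and without PRDX1 overlapped in Slfn9, the last long member. It had 22.8 and 21.8 FPKM with M-CSF alone, 26.2 and 28.7 FPKM with PRDX1, 27.9 and 24.1 FPKM with RANKL, and 32.3 and 32.3 FPKM with PRDX1 + RANKL. The overlap was between PRDX1 and RANKL, while PRDX1 + RANKL was above all other libraries. The log2 difference by PRDX1 with RANKL was 0.31 (SE 0.07, adjusted p = 0.00790), below the fold required.

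In all, 4 of the 7 members were called higher by PRDX1 with RANKL, namely Slfn1, Slfn4, Slfn5 and Slfn8, beside 6.03% of all genes tested. The median log2 difference was 0.72 over the 7 members and -0.06 over all genes. The contrast that chose the family, PRDX1 without RANKL, placed the same 4 members among the 3.8% of all genes called higher, which is a description of the choice and from which nothing is read. All 7 members passed the filter of 0.5 FPKM on the mean of the libraries, and each had a mean above it with M-CSF alone, the lowest being 2.31 FPKM for Slfn1. For PRDX1 + RANKL against M-CSF alone, 5 of 7 were called higher, with Slfn2 added, beside 7.5% of all genes. The PRDX1 comparisons with and without RANKL share no libraries, and the last one shares libraries with both.

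For RANKL, the log2 differences of the 7 members lay between -0.18 and 0.34, with or without PRDX1. The comparison without PRDX1 uses the M-CSF alone libraries of the contrast that chose the family. The one with PRDX1 uses the PRDX1 libraries of that contrast. Neither test is therefore independent of the choice. Without PRDX1, 0 of 7 were called by limma, beside 21.8% of all genes. Unadjusted p was under 0.05 for 4 members and adjusted p for 3, and limma-voom on recovered reads also called 0. The 3 were Slfn2 at 0.28 (SE 0.05, adjusted p = 6.05e-04), Slfn9 at 0.21 (SE 0.07, adjusted p = 0.0329) and Slfn8 at -0.17 (SE 0.07, adjusted p = 0.0479) on the log2 scale. Slfn4 was at 0.34 with a 95% interval of 0.03 to 0.65 and an adjusted p of 0.0567. Over the 14 alternatives the adjusted p stayed under 0.05 for Slfn2 (3.64e-05 to 0.00497) but not for Slfn9 (0.00486 to 0.210), Slfn8 (0.00405 to 0.279) or Slfn4 (0.00712 to 0.426). Slfn9 was at 0.11 without RANKL replicate 1, and Slfn8 at -0.26 without that library and at -0.0764 without RANKL replicate 2. Slfn4 was at 0.13 without replicate 1 of M-CSF alone, 0.55 without replicate 2 of it and 0.22 without RANKL replicate 2. In the presence of PRDX1, RANKL again gave 0 calls among the 7 by either tool, beside 8.5% of all genes, with an unadjusted p under 0.05 for 4 members. The values were 0.30 for Slfn2 (adjusted p = 8.10e-04), 0.23 for Slfn5 (adjusted p = 0.0298) and 0.23 for Slfn9 (adjusted p = 0.0326), and the other members were between -0.18 and 0.18. Over the alternatives, adjusted p was 1.21e-05 to 0.0113 for Slfn2, 0.00114 to 0.157 for Slfn5 and 0.00288 to 0.205 for Slfn9.

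The test of whether the PRDX1 effect differed with RANKL includes the libraries of the contrast that chose the family. It gave 0 calls among the 7 members by limma and by limma-voom, beside 8.85% of all genes, and 2 members had an unadjusted p under 0.05. For Slfn8 the PRDX1 effect was 0.30 higher with RANKL on the log2 scale (95% interval 0.09 to 0.51, adjusted p = 0.0435), a difference smaller than 1.5-fold, and the adjusted p was above 0.05 in 8 of the 14 alternatives (0.0058 to 0.123). For Slfn3 it was 0.22 higher (0.01 to 0.43, adjusted p = 0.133), and 0.14 to 0.29 higher with 1 library left out. For Slfn4 the difference was -0.16 with an interval of -0.60 to 0.28, and for Slfn1 it was -0.02 with an interval of -0.54 to 0.50. Changes in either direction within these intervals remain compatible with the data.

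**Figure D2:**
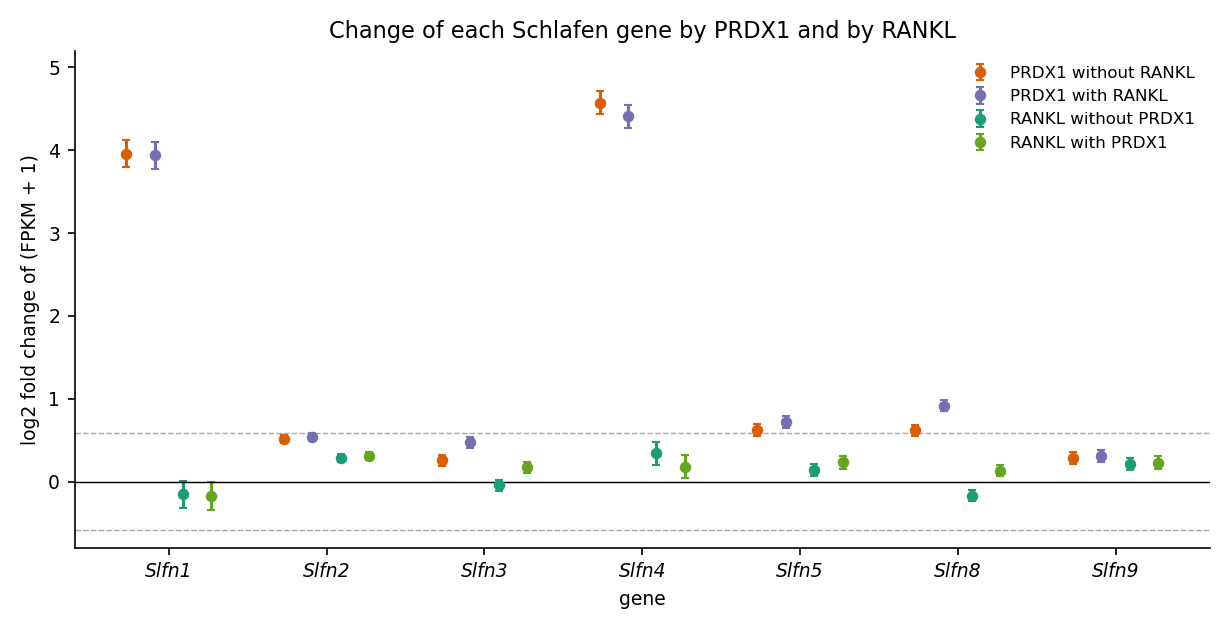
Log2 fold change of FPKM + 1 for the 7 Schlafen genes in 4 comparisons, with bars of 1 standard error from the limma fit. Dashed lines mark a fold change of 1.5. Slfn4 and Slfn1 stand near 4 in both PRDX1 comparisons, and the RANKL comparisons lie between -0.18 and 0.34 for all 7 genes.

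Summed over the 7 members, the Schlafen level was 263.4 ± 2.27 FPKM (SD, n = 2) with M-CSF alone, 506.7 ± 13.5 FPKM with PRDX1, 303.5 ± 21.9 FPKM with RANKL and 586.8 ± 8.93 FPKM with PRDX1 + RANKL. The make-up changed with it. Slfn2 made 59.7% of the sum with M-CSF alone and 44.4% with PRDX1, and 63.1% with RANKL and 47.3% with PRDX1 + RANKL. Slfn4 went from 1.03% to 17.2% without RANKL and from 1.22% to 16.7% with RANKL, and Slfn1 from 0.876% to 9.79% and from 0.650% to 7.46%.

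**Figure D3:**
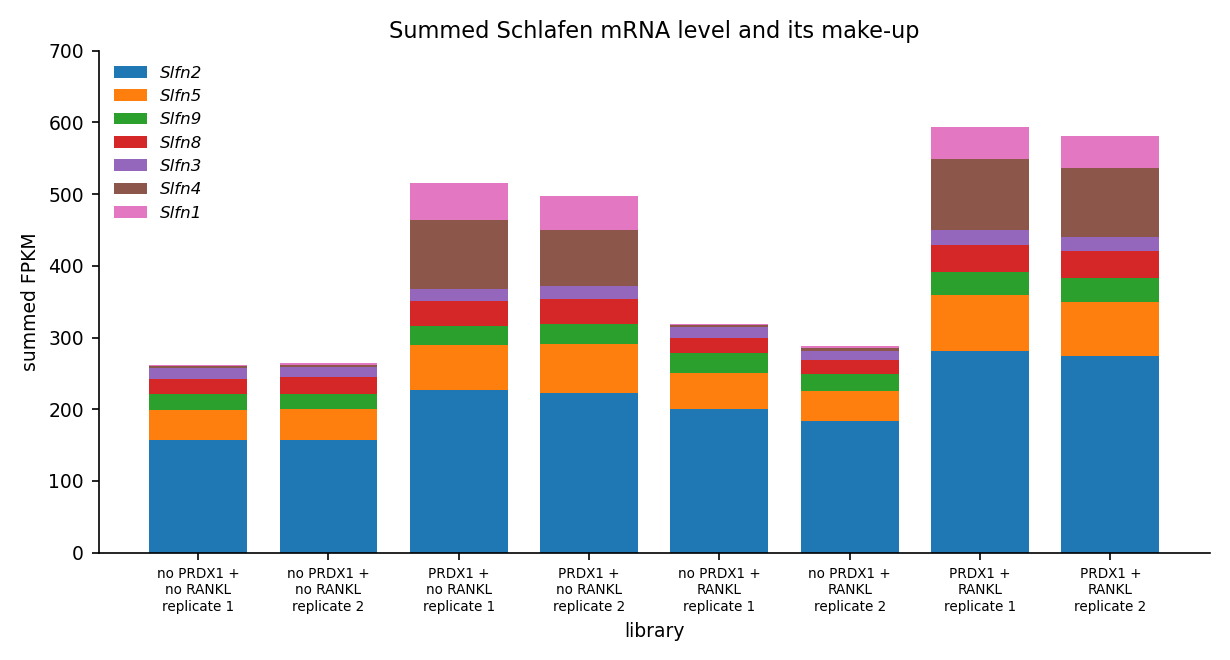
Summed FPKM of the 7 Schlafen genes in each library, stacked by gene from 0. The Slfn4 and Slfn1 blocks are thin in the 4 libraries without PRDX1 and large in the 4 with it, and Slfn2 is the largest block in all 8.

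Across the 8 libraries, the log2 levels of Slfn1 and Slfn4 had a Pearson r of 0.994, and Slfn1 and Slfn9 had 0.714, the lowest of the 21 pairs of members. The 8 points fall into groups with and without PRDX1, and no p is given. Outside the family, the 3 genes most like Slfn4 were Irf7 (r = 0.999), Sqstm1 (r = 0.996) and Anpep (r = 0.995). Irf7 encodes an interferon regulatory factor, and its level was 156.3 and 170.1 FPKM with M-CSF alone, 570.3 and 576.1 FPKM with PRDX1, 176.0 and 194.3 FPKM with RANKL, and 594.1 and 598.7 FPKM with PRDX1 + RANKL. For Slfn1 they were Gpnmb (r = 0.996), Sqstm1 (r = 0.996) and Trib3 (r = 0.993). For Slfn2 they were H2-Q8 (r = 0.995), Ifit1 (r = 0.994) and H2-Q6 (r = 0.993), and for Slfn3 they were H2-T24, Gvin1 and Gm4070 (each r = 0.978 to 0.979). The closest to Slfn5 were Phf11d (r = 0.992), Irgm1 (r = 0.990) and Usp18 (r = 0.988). Slfn8 was closest to Xaf1 (r = 0.996) and Cd72 (r = 0.990), and Slfn9 to Parp9 (r = 0.985), Samd9l (r = 0.981) and Acp2 (r = 0.970).

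Because Schlafen genes are known as interferon-induced, the interferon pathway and its effectors were described beside them. The lists were chosen with earlier results of these data known. By PRDX1 with RANKL, 6.03% of all genes tested were called higher, and the median over all genes was -0.06. Of 20 interferon-stimulated effector genes, 15 were called higher and 0 lower by PRDX1 with RANKL, with a median of 0.99. Among these, Mx1, a GTPase that blocks virus replication, rose by 1.89 (SE 0.11, adjusted p = 7.14e-07), and the RNA-binding proteins Ifit3 and Ifit2 by 1.79 and 1.57. Of 14 tested genes of the interferon pathway, from the receptors to the STAT and IRF factors, 5 were called higher and 0 lower, with a median of 0.36. Irf7 rose by 1.68, Irf8 by 1.55 and Stat2 by 1.42. The mRNA of interferon beta (Ifnb1) had at most 2 reads in any library, so that its level could not be compared. Of 13 tested genes of the TLR4 receptor and its adaptors, 2 were called higher with RANKL and 0 lower, with a median of 0.09. They were Cd14 at 1.14 and the kinase Ikbke at 0.99, while Ly96, the TLR4 co-receptor, had 0.40 and was not called.

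Without RANKL, 12 of the 20 effectors, 4 of the 14 pathway genes and 0 of the 13 TLR4 genes were called higher, and medians were 0.70, 0.23 and -0.04. Of all genes tested, 3.8% were called higher in that comparison, with a median of -0.04. For the TLR4 genes, 4 had an unadjusted p under 0.05 and limma-voom called 0.

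The genes beside the cluster were tested in the same way. Of 21 genes between its ends or within 200 kb of them, 10 passed the filter on low values. By PRDX1, limma called 0 of the 10 without RANKL and 0 with RANKL, while 5 and 3 had an unadjusted p under 0.05 and limma-voom called 2 and 1. Medians were -0.03 and -0.12. AI662270, the nearest tested gene beyond Slfn3, was at -0.16 without RANKL and -0.03 with it. Nle1, the nearest tested gene on the other side, was at -0.07 and -0.21.

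**Figure D4:**
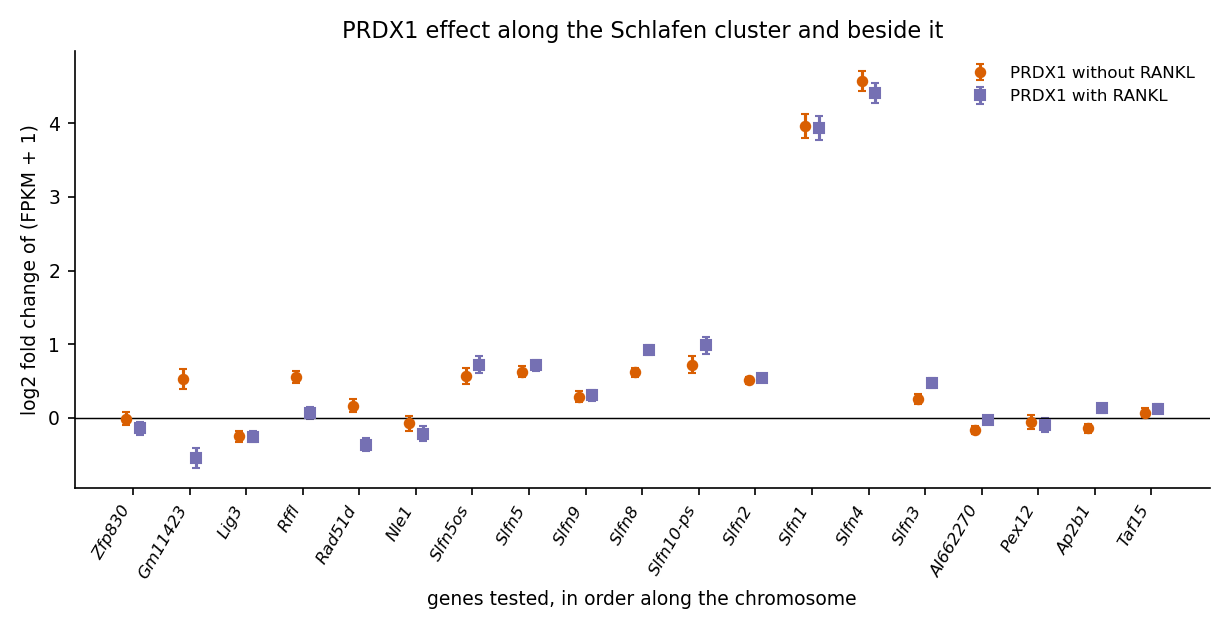
Log2 fold change by PRDX1 of the Schlafen genes and the tested genes around them, in their order along chromosome 11 and not to scale, with bars of 1 standard error. Circles are the comparison without RANKL and squares that with RANKL. Slfn1 and Slfn4 stand at 3.94 to 4.57, the other Schlafen genes between 0.26 and 0.98, and the genes on either side between -0.55 and 0.55.

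Other Schlafen rows of the table were not among the 7. Slfn10-ps, named as a pseudogene and lying between Slfn8 and Slfn2, was at 5.53 and 4.55 FPKM with M-CSF alone, 9.58 and 8.35 FPKM with PRDX1, 4.44 and 3.53 FPKM with RANKL, and 8.78 and 8.86 FPKM with PRDX1 + RANKL. It rose by PRDX1 with RANKL by 0.98 (SE 0.11, adjusted p = 7.30e-05). The row of Slfn5os, an antisense transcript at Slfn5, was higher by 0.72 (SE 0.12, adjusted p = 6.81e-04), the log2 difference of Slfn5 itself. Over all GENCODE transcripts of both genes, their exons share 559 bases on opposite strands, 50.7% of the Slfn5os exons of that annotation and 8.84% of those of Slfn5. How much of the shorter RefSeq transcript used for counting is shared was not tested. Reads were counted without regard to strand, so that the reads of the pair cannot be told apart in the shared part. Slfn14 had at most 4 reads in any library, and Slfnl1 was listed at 0 in all 8.

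Members that resemble each other can share reads. Of all stretches of 100 bases in the GENCODE transcript, the length of a read, 3.90% of Slfn9 and 3.22% of Slfn8 also occurred in Slfn10-ps or in each other. In Slfn3, 5.42% occurred in the pseudogene Gm11427. In Slfn4 the share was 0.305% and in Slfn1 it was 0, so that identical copies cover little of the 2 genes with the highest ratios. Of stretches of 50 bases, 23.7% of Slfn3 and 11.9% of Slfn4 occurred elsewhere, among other genes in each other and in Gm11427, and 0.606% of Slfn1. For the other members the share at 50 bases was 12% in Slfn8, 11.4% in Slfn9, 4.27% in Slfn2 and 3.59% in Slfn5. The effect of shared stretches on the levels, which also depends on the level of the other gene, was not tested.

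Markers of other cell types were measured beside the members. Of all genes tested, 3.8% were called higher by PRDX1 without RANKL and 6.03% with RANKL. All 8 macrophage markers were expressed, in keeping with the labelled cells, with Csf1r between 241.4 and 513.9 FPKM in every library. Macrophage markers were called higher by PRDX1 for 0 of 8 genes without RANKL (5 at an unadjusted p under 0.05, 0 by limma-voom) and for 4 of 8 with RANKL. Of the osteoclast markers, 8 of 8 tested fell by PRDX1 with RANKL, with a median of -2.83. Without RANKL, 3 of the 8 were called higher by PRDX1 and 0 lower, with a median of 0.33. Neutrophil markers summed to 8.19 to 12.2 FPKM with M-CSF alone, 38.8 to 43.3 FPKM with PRDX1, 16.2 to 16.6 FPKM with RANKL and 34.0 to 37.5 FPKM with PRDX1 + RANKL. Of the 5 tested of 8, 4 were called higher by PRDX1 without RANKL and 3 with RANKL, while Ly6g, the defining surface marker, had at most 8 reads in any library.

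Monocyte markers summed to 81.4 to 87.1 FPKM with M-CSF alone, 181.3 to 192.3 FPKM with PRDX1, 53.5 to 60.7 FPKM with RANKL and 117.2 to 118.1 FPKM with PRDX1 + RANKL. In both PRDX1 comparisons 2 of 4 were called higher, Plac8 and Ly6c2. Stromal markers summed to 7.17 to 9.89 FPKM and 7.18 to 8.75 FPKM without PRDX1, and to 15.9 to 16.2 FPKM and 14.0 to 17.9 FPKM with it, and 2 of 3 tested were called higher in both comparisons. Of 4 dendritic cell markers 1 was tested, Ccr7, and it was called higher in both. T cell markers, of interest because Slfn1 and Slfn2 are known from T cells, summed to 0.729 to 1.06 FPKM with M-CSF alone, 1.15 to 1.16 with PRDX1, 0.907 to 1.19 with RANKL and 1.61 to 1.95 with PRDX1 + RANKL. Of the defining markers Cd3e had 0 reads in every library and Cd3d and Cd3g at most 5 and 4, while Cd4, which other cells also express, had up to 175. Markers of B cells summed to 0.589 to 0.976 FPKM with M-CSF alone, 1.59 to 2.13 with PRDX1, 0.631 to 0.922 with RANKL and 1.37 to 1.61 with PRDX1 + RANKL. Those of NK cells summed to 0.148 to 0.472 FPKM with M-CSF alone, 0.549 to 0.891 with PRDX1, 0.0430 to 0.168 with RANKL and 0.573 to 0.689 with PRDX1 + RANKL, and Ncr1 had 0 reads in every library. The part of these marker changes in the Schlafen values was not tested.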

How the data were processed

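The members and all gene lists were chosen with earlier results of these data known. RNA-seq of 8 libraries was aligned by the authors with HISAT2 to mm10 and counted with HOMER on RefSeq exons of both strands, 1 transcript per gene. The deposited unit is FPKM, already divided by transcript length and library total. Multiplied by length, FPKM gave whole reads (within 0.05 reads) at a single scale in each library in 99.98% to 100% of genes, which returned library totals of 27284656 to 46171830. The authors' notes also name DESeq2. No columns of their own comparisons were used.

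For the 11700 genes with a mean of at least 0.5 FPKM, limma 3.58.1 (R 4.3.3, eBayes with trend) was run on log2(FPKM + 1), with the 4 groups together. This scale understates the change of low genes. A call needed an adjusted p (Benjamini-Hochberg, over all genes tested) under 0.05 and a change of 1.5-fold or more. Steps were tested on simulated data. Alternatives were pseudocount 0.1, no filter, quantile and upper quartile scaling, each library left out, a replicate block and limma-voom on the recovered reads. Intervals of the fit cover the spread between libraries. Named genes were the 7 members, other Schlafen rows, the 3 most correlated genes of each member (1 of them is not reported here) and up to 3 genes with the largest change by PRDX1 with RANKL in a pathway list. Irf7 per library, Ifnb1, the nearest tested genes beside the cluster and markers named singly were added after their values were seen. Shared transcript stretches were searched in GENCODE vM21, and the base run shared by the promoters was looked for after the windows were read. Same-numbered libraries had correlations of deviations of 0.008 to 0.096 in 6 pairs of groups, so the numbers were not treated as pairs.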

Additional observations from a re-analysis of the deposited data

Results flagged for a closer look

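For Slfn8 the PRDX1 effect with RANKL exceeded that without RANKL by 0.30 on the log2 scale (limma, adjusted p = 0.0435), a difference between 2 settings of the same contrast. The value includes the libraries of the contrast that chose the family, so it is not independent of that choice. The adjusted p was 0.0058 to 0.123 over the 14 alternatives and under 0.05 in 6 of them. It was above 0.05 with no filter on low values (0.0829) and in 7 of the 8 fits that left out 1 library, all but the one without no PRDX1 + RANKL replicate 1. Slfn8 shares some sequence with Slfn9 and Slfn10-ps. The cause of the difference was not tested.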

How the results depend on the processing

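The count of members called higher by PRDX1 with RANKL was 4 in 12 of the 14 alternatives and 5, with Slfn2 added, in the other 2. In the other comparisons the counts did not change under any of the 14. For the contrast that chose the family this is a description. Values of single members under alternatives numbered 588, including those of the contrast that chose the family, which all kept direction and call. Of the 588, 572 kept their direction and whether they were called (adjusted p and fold together). In the rest, 2 were called where the main value was not, and 14 changed sign. By adjusted p alone, 54 of the 490 values of the tested contrasts crossed 0.05. The 2 were Slfn2 by PRDX1 with RANKL, 0.69 under quantile normalization and 0.60 without no PRDX1 + RANKL replicate 1. The sign changes were all in values near 0 that were not called. Leaving out 1 library at a time, Slfn1 by RANKL without PRDX1 ranged from -0.43 to 0.11 and Slfn3 from -0.12 to 0.0288. The interaction ranged from -0.29 to 0.25 for Slfn1, from -0.0411 to 0.0862 for Slfn2, from -0.37 to 0.0435 for Slfn4, from -0.0269 to 0.21 for Slfn5 and from -0.0803 to 0.12 for Slfn9. For Slfn1 it was also 0.0361 with a pseudocount of 0.1 and 0.0752 with limma-voom. The cause was not tested. The fit with the replicate number as a block called 4 of 7 members by PRDX1 with RANKL as the fit without it did, and changed no count of members. Block and check used the replicate numbers of the sample titles, for which no pair of groups had correlated deviations above 0.1. The directory names in the file header carry other numbers, with gaps in 2 groups. Whether they mark another pairing or libraries that are not analysed here is not stated in the sources used. With 2 libraries a group, each test rests on the spread pooled over 4 groups, and Slfn1 had only 80 reads in its lowest library.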
